A study of Mus musculus with 16 samples.

Results

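The classical protein tyrosine phosphatases (PTPs) were followed as 38 genes, taken from the 54347 genes of the count table by symbol: 21 receptor genes named Ptpr with a letter and 17 non-receptor genes named Ptpn with a number. The mice were homozygous for a deletion of the upstream regulatory element of Spi1, an enhancer of the gene for the transcription factor PU.1 (URE), or were wild-type littermates (WT), on a C57BL/6 background and 8 to 12 weeks old. The deletion is carried in the germ line, so it is present in every cell of the animal. From the bone marrow of both genotypes, LSK cells (Lin-Sca-1+c-Kit+, the stem and multipotent progenitor gate) and GMP cells (Lin-Sca-1-c-Kit+Cd16/32+, the granulocyte-monocyte progenitor gate) were sorted for RNA-seq. Each of the 4 groups, WT LSK, URE LSK, WT GMP and URE GMP, had 4 libraries, 16 in all. Each group came from 4 mice by the methods, and replicates carry the numbers 1 to 4. Whether a number marks the same mouse in both gates is not given in the labels.

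Classical PTPs remove phosphate from tyrosine and so oppose tyrosine kinases. Receptor PTPs span the plasma membrane with adhesion-like outer parts. Many carry a tandem pair of phosphatase domains inside the cell, of which the one nearer the membrane is the more active. Non-receptor PTPs hold a single phosphatase domain beside SH2, FERM, PDZ or proline-rich parts that decide where they act. In blood cells the family is known for CD45 (Ptprc), which activates Src family kinases, and for SHP-1 (Ptpn6), which dampens cytokine receptor signals.

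The domains share a signature loop around the catalytic cysteine, and it is shown here because Ptprn, which rose in URE GMP, departs in it from nearly all other members. In the GENCODE M21 coding sequences (GRCm38), 37 of the 38 members had a full coding sequence, and each of these 37 held at least 1 run of a histidine and a cysteine codon, any 5 codons and an arginine codon. Ptprv, annotated as a processed transcript, had no coding sequence there. Across 48 such runs of 24 bases, the fourth codon encoded alanine in 40, aspartate in 2 (Ptprn and its relative Ptprn2), serine in 1 (Ptpn23) and another residue in 5, which were the second runs of Ptprk, Ptprm, Ptprt and Ptpru and the first of Ptpn9. Runs were found by their codons alone and need not lie in a phosphatase domain. The non-receptor members Ptpn9 and Ptpn13 each held 2 runs, and the first of Ptpn13 is among the 40 with alanine. The fourth codon is in capitals below, each run reads 5′ to 3′ along the coding strand, and the coordinates span the intron that splits it.
Ptprn, chr1:75248151-75248733, minus strand: cactgcagtGACggtgcagggagg
Ptprf first domain, chr4:118212234-118212334, minus strand: cattgcagtGCGggtgtggggcgc
Ptprf second domain, chr4:118210489-118210624, minus strand: cactgcagtGCTggtgtgggccgc
Ptpro, chr6:137450018-137454600, plus strand: cactgcagtGCGggtgtgggacgg
Ptprr, chr10:116252969-116256145, plus strand: cactgcagtGCGgggattgggaga
Ptprm first domain, chr17:66693583-66693779, minus strand: cactgcagtGCTggagcaggaagg
Ptprm second domain, chr17:66678121-66683378, minus strand: cactgcttgAACggaggaggccgc
Ptprc, chr1:138080255-138080844, minus strand: cactgcagtGCTggtgttgggcgt
Ptpn6, chr6:124722063-124724964, minus strand: cattgcagcGCTggcatcggccgc
Ptpn3, chr4:57195822-57196358, minus strand: cactgcagtGCTggaataggtcgg
Ptpn7, chr1:135139271-135141958, plus strand: cactgcagtGCAgggatcggccgg
Ptprc held 1 such run although its protein has a pair of phosphatase domains, and Ptprf held 2.

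The libraries held 20028302 to 29128858 counts. Spi1 itself stood at 69.6 to 165 CPM (the count scaled to the size of the library) in WT LSK and 1.16 to 4.48 in URE LSK, and at 87.6 to 180 in WT GMP and 15.2 to 27.5 in URE GMP, so the labels and the targeted gene matched in every library. All 9 genes of a list of LSK markers and all 8 of a list of GMP markers had counts in every group, and the GMP markers summed to 54750 to 154600 CPM in the GMP libraries against 2167 to 2943 CPM in the LSK libraries. Summed markers of monocytes (6 genes) were lower in URE, at 81.9 to 673 CPM in URE GMP against 1288 to 2023 in WT GMP and at 10.6 to 21.1 in URE LSK against 57.3 to 116 in WT LSK. Summed late granule genes of neutrophils (6 genes) were higher, at 217 to 975 against 43.0 to 144 CPM in GMP and at 181 to 361 against 34.9 to 177 in LSK. Of the 6 monocyte and 6 neutrophil genes, none was at 0 throughout a group. Summed B-cell markers (7 genes) were lower in URE, at 25.9 to 36.6 against 58.25 to 86.25 CPM in LSK and 10.98 to 25.8 against 63.2 to 86.65 CPM in GMP. Pax5 was at 0 in both URE groups and in WT GMP, and at 0 to 0.195 CPM in WT LSK. Cd79b made up most of that sum in every group (8.14 to 22.96 CPM in URE GMP, 62.1 to 84.96 in WT GMP), while Vpreb1 was higher in URE GMP, at 2.52 to 2.86 against 0.879 to 1.79 CPM. The sum of 9 T and NK cell markers was 1345 to 2150 CPM in URE GMP against 579 to 980 in WT GMP, nearly all of it from Nkg7 (1322 to 2140 against 570.6 to 966 CPM), and Cd3e was at 0 in both. Megakaryocyte markers (6 genes) ranged more widely in URE LSK, at 59.5 to 739 CPM, than in WT LSK, at 66.7 to 86.9 CPM. Mast cell and basophil markers (6 genes) summed to 131 to 260 CPM in URE LSK against 69.3 to 158 in WT LSK. Among them, Cpa3 (64.1 to 144 against 14.6 to 38.25 CPM) and Mcpt8 (8.915 to 27.94 against 2.67 to 6.971) were higher in URE LSK without overlap. Ms4a2 was lower in URE LSK without overlap (0 to 0.736 against 1.243 to 2.524 CPM), and Prss34, Gata2 and Fcer1a overlapped. In GMP, Mcpt8 was higher in URE (129 to 438.5 against 70.8 to 122 CPM). Ms4a2 (1.396 to 18.9 against 61.5 to 93.4) and Prss34 (13.1 to 53.6 against 126 to 258) were lower there. The sum of 4 Y-linked genes was below 5 CPM in 3 of the 4 URE libraries and 1 of the 4 WT libraries of each gate. Replicates 1 and 4 deviated together, against replicates 2 and 3, in all groups. The part of these differences in the results below was not tested except where a value is given, and a gene counted less often in a sorted population cannot be told apart from fewer cells that carry it.

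Of the 38 members, 27 had enough counts to be tested between genotypes in LSK, and 27 in GMP. Counts in a single genotype were enough for this, as for Ptprr, which was tested in both gates with 0 counts in every URE library. Members tested in no comparison numbered 11, namely Ptprb, Ptprd, Ptprg, Ptprh, Ptprn2, Ptprq, Ptprt, Ptprz1, Ptpn5, Ptpn13 and Ptpn20, with at most 18 counts in any library, and Ptprq and Ptpn20 had 0 counts in all 16. Most of these are known from brain, endothelium, gut or testis rather than blood.

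The PTP message of these progenitors was carried by a few genes. Per kb of the longest annotated transcript, which allows genes to be compared, Ptpn6, Ptpn7 and Ptprc took the first 3 places in every group. Ptpn6 led in WT LSK at 140 ± 15.5 CPM per kb (SD, n = 4), followed by Ptprc at 82.7 ± 7.09 and Ptpn7 at 77.6 ± 14.6, and the ranges of the last pair overlapped (73.1 to 90.1 and 57.5 to 89.3). In WT GMP, Ptpn6 stood at 116 ± 22.2 and Ptpn7 at 92.8 ± 25.8 CPM per kb with overlapping ranges. In URE cells the order was the reverse. Ptpn7 stood at 102 ± 12.8 CPM per kb in URE LSK and 117 ± 18.6 in URE GMP, and its lowest library, 91.9 and 89.0, lay above the highest Ptpn6 library, 70.7 and 80.6. Places 4 and 5 were held by Ptpn2 and Ptpn18 in every group. Ptprc made up 68.3% of the summed receptor level in WT LSK, 65.6% in WT GMP, 52.0% in URE LSK and 39.7% in URE GMP. Without Ptprc, the receptor members summed to 38.4 ± 6.03 CPM per kb in WT LSK and 38.7 ± 7.396 in URE LSK, and to 28.5 ± 3.86 in WT GMP and 48.6 ± 9.80 in URE GMP.

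**Figure D1:**
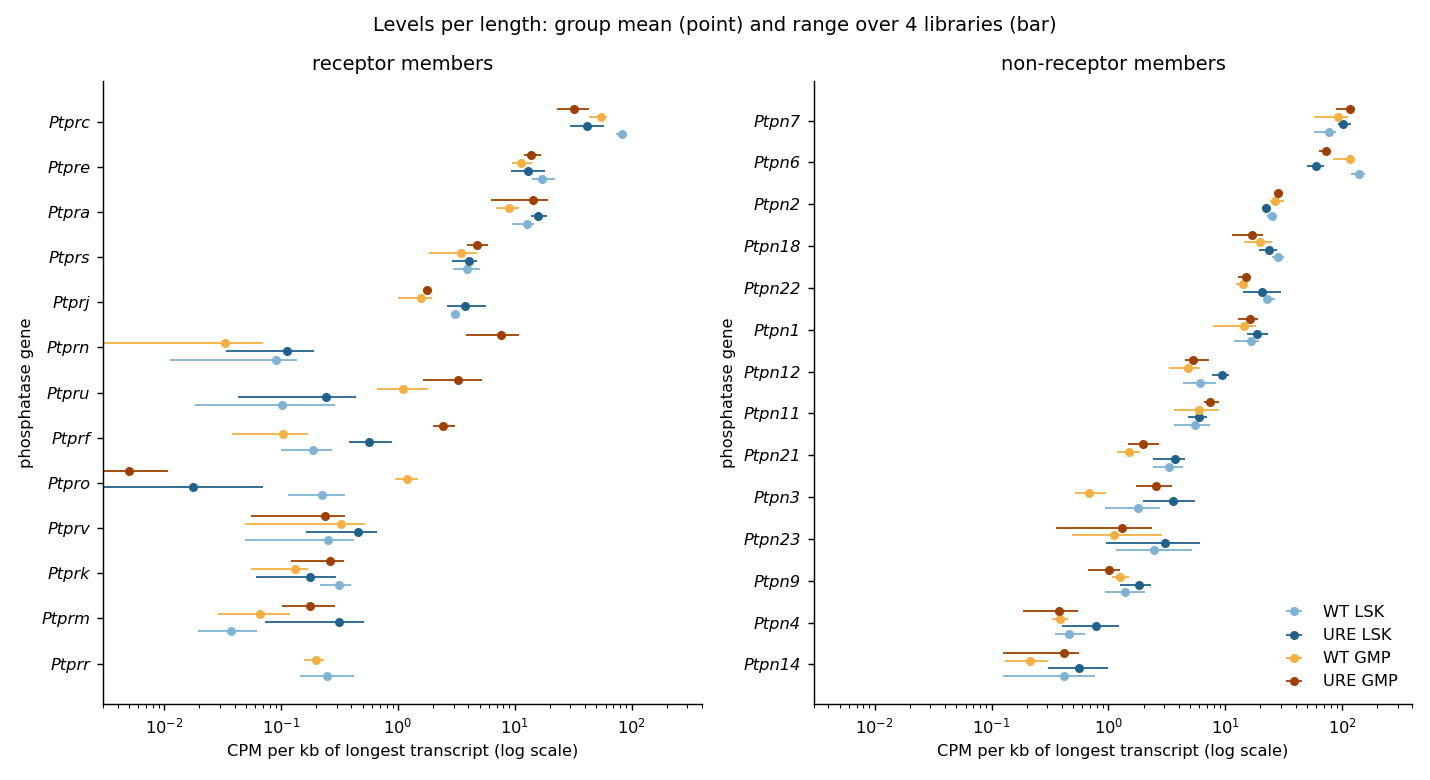
Level of each tested PTP gene in CPM per kb of its longest transcript, on a log axis, with receptor genes on the left and non-receptor genes on the right. Points are means of 4 libraries and bars the range; a group at 0 in all 4 libraries (Ptprr in URE) has no point, and bars reaching a library at 0 run to the left edge. Ptpn6, Ptpn7 and Ptprc lie rightmost, and Ptprn reaches 7.66 CPM per kb in URE GMP against at most 0.1125 in the other groups.

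In LSK, the genotype comparison asks what the loss of the enhancer does to the most immature cells. It called 1 of 27 members higher in URE (Ptprm) and 3 lower (Ptprr, Ptpn6 and Ptprc). A call needed a fold above 1.5 beside an adjusted p under 0.05, and 2.38% and 3.76% of the 15154 genes tested were called higher and lower. The median log2 fold change of the 27 was 0.24, against 0.00093 over all genes tested. With the replicate number as a block, 4 members were called higher, adding Ptprf, Ptpn3 and Ptpn12, against 3.83% of all genes, and the 3 lower members were called again, against 5.62%. Every URE library lay above every WT library for 3 members and below for 4, as it did for 5.67% and 6.91% of all genes.

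In GMP, where the question is the same in committed granulocyte-monocyte progenitors, 3 of 27 members were called higher (Ptprn, Ptprf and Ptpn3) and 3 lower (Ptpro, Ptprr and Ptpn6), where 4.67% and 3.63% of 13829 genes were. Ptprn in WT GMP, and Ptpro and Ptprr in URE GMP, were at or near 0 counts. These members were tested only through their counts in the other genotype, so their place among the 27 and their calls rest on the same libraries. The same filter was applied to all genes. The median log2 fold change was 0.23, against 0.0052 over all genes. The block added Ptpru to the higher and Ptprc to the lower calls, where 9.52% and 6.82% of all genes were called. The URE libraries lay wholly above the WT libraries for 3 members and wholly below for 4, against 7.27% and 7.67% of all genes.

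**Figure D2:**
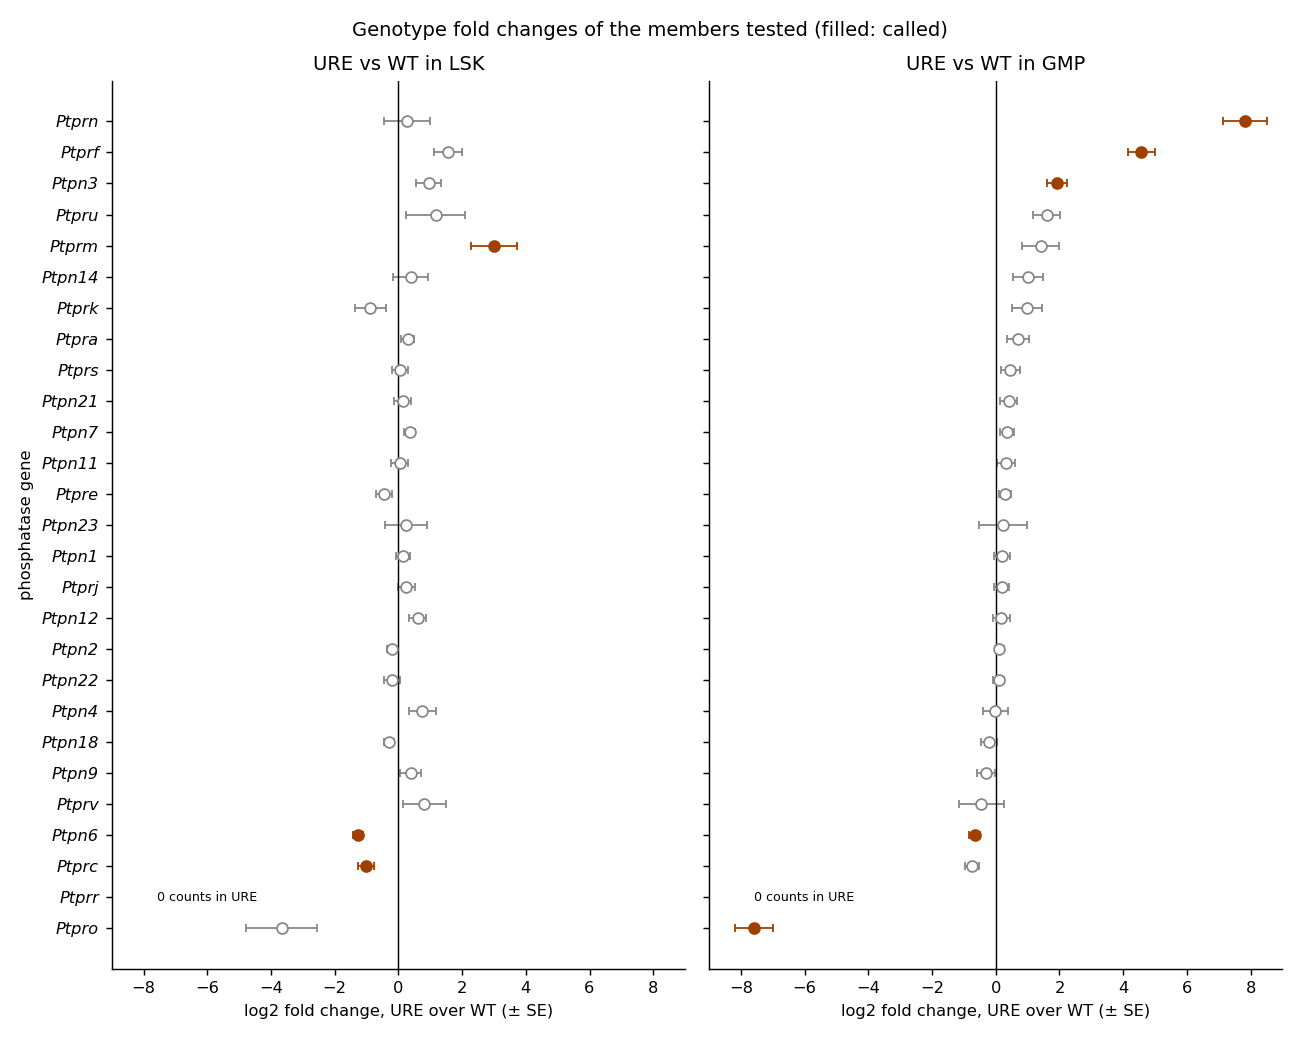
Log2 fold change of URE over WT with its standard error for the 27 members tested, in LSK (left) and GMP (right), ordered by the GMP value. Filled points were called; Ptprr, at 0 counts in all URE libraries, is marked in words and was called lower in both gates. Ptprn, Ptprf and Ptpro stand far from 0 in GMP, while 21 of 27 members were not called there.

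Among the receptor genes that rose, Ptprn encodes IA-2, a membrane protein of dense-core secretory vesicles of neuroendocrine cells that is known to lack phosphatase activity (chr1:75247027-75264502, minus strand). Its 4 URE GMP libraries held 38.7, 22.8, 13.6 and 33.8 CPM (804, 455, 270 and 616 counts). The 4 WT GMP libraries held 0.176, 0.0429, 0 and 0.248 CPM (4, 1, 0 and 5 counts). WT LSK held 0.488, 0.403, 0.0398 and 0.361 CPM, and URE LSK 0.120, 0.502, 0.292 and 0.685 CPM. Only URE GMP was high, and no library of it overlapped any other group. The log2 fold change in GMP was 7.82 ± 0.70 (SE, adjusted p = 0.000396), and in LSK 0.26 ± 0.72 (adjusted p = 0.96). The difference between both genotype effects was 7.56 ± 1.02 on the log2 scale and passed its own test (adjusted p = 0.00209). Within URE mice, GMP exceeded LSK by 6.07 ± 0.56 (adjusted p = 0.000187). An antisense gene that shares 189 exonic bases with Ptprn, Gm28294, had 0 counts in all 16 libraries. A list of 7 neuroendocrine genes (Chga, Chgb, Scg2, Scg3, Syp, Snap25 and Insm1) summed to 0.144 to 0.352 CPM in URE GMP, with Chgb, Scg2 and Insm1 at 0 counts there. Ptprn2, the closest relative, had at most 1 count in any library.

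Ptprf encodes LAR, an adhesion receptor known from epithelia and nerve endings (chr4:118208213-118291405, minus strand). URE GMP libraries held 23.8, 15.2, 17.4 and 18.6 CPM, and WT GMP libraries 0.923, 0.686, 0.290 and 1.29. URE LSK libraries held 6.82, 2.95, 3.08 and 4.54 CPM, and WT LSK libraries 1.82, 0.773, 1.03 and 2.08. In both gates the lowest URE library lay above the highest WT library. Ptprf rose in GMP by 4.57 ± 0.43 on the log2 scale (adjusted p = 0.000463). Its LSK value, 1.56 ± 0.44, missed the threshold without the block (adjusted p = 0.0799) and passed with it (1.59 ± 0.33, adjusted p = 0.0213). The genotype effect was larger in GMP than in LSK by 2.98 ± 0.60 (adjusted p = 0.0249), where 0.866% of 15935 genes were called in that direction. That call was lost on leaving out URE GMP replicate 4, URE LSK replicate 4, WT GMP replicate 2, WT LSK replicate 1 or WT LSK replicate 4, with values of 2.74 to 2.998.

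Ptprm encodes a receptor that binds its own kind on neighbouring cells (chr17:66666947-67354457, minus strand). Its counts were low, at 22, 76, 9 and 62 in URE LSK (0.882, 2.54, 0.375 and 2.66 CPM) and 7, 3, 3 and 8 in WT LSK (0.228, 0.101, 0.119 and 0.321 CPM). The groups did not overlap, but the lowest URE library stood only slightly above the highest WT library. The log2 fold change was 3.005 ± 0.72 (adjusted p = 0.0394). Ptprm stayed called on leaving out URE LSK replicate 3 only. It was too low to be tested without URE LSK replicate 1 or 2, and lost its call without any of the other 5 libraries, at 2.67 to 3.34 (adjusted p up to 0.23 over all alternatives). In GMP the value was 1.41 ± 0.57 (adjusted p = 0.195), from 0.530 to 1.505 CPM in URE and 0.149 to 0.615 in WT, which overlapped. A processed pseudogene, AC139750.1, shares 457 exonic bases with Ptprm, so its counts may be split.

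The non-receptor member that rose, Ptpn3, holds FERM and PDZ domains and acts at the cell cortex (chr4:57190841-57301837, minus strand). URE GMP libraries held 22.3, 10.9, 13.1 and 18.9 CPM, and WT GMP libraries 6.07, 3.43, 3.29 and 4.72. They did not overlap, and the log2 fold change was 1.91 ± 0.32 (adjusted p = 0.00632). In LSK, URE libraries held 34.9, 12.7, 20.7 and 23.2 CPM and WT libraries 17.6, 6.01, 9.27 and 13.1, which overlapped, although URE was higher in all 4 pairs of equal replicate number. There the value was 0.95 ± 0.39 without the block (adjusted p = 0.268) and 0.97 ± 0.17 with it (adjusted p = 0.00994). With the block, the GMP effect exceeded the LSK effect by 0.90 ± 0.22 (adjusted p = 0.0279, without it 0.527).

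Ptpro fell to the limit of detection. It encodes a receptor with fibronectin-like repeats known from podocytes, with a truncated form in macrophages (chr6:137252319-137463233, plus strand). WT GMP libraries held 7.56, 5.92, 6.24 and 4.82 CPM (172, 138, 129 and 97 counts), whereas the 4 URE GMP libraries held 1, 0, 0 and 1 counts. The ratio of WT to URE was 243, with a 95% exact interval of 67.0 to 2010 that covers counting error only (adjusted p = 0.000283). WT LSK libraries held 0.586, 1.81, 1.11 and 1.08 CPM, and URE LSK libraries 0.361, 0, 0 and 0. URE LSK replicate 1, with 9 counts, was the only library with any, and the groups did not overlap. The log2 fold change in LSK was -3.67 ± 1.11 and was not called (adjusted p = 0.102), whereas without that library, when the other 3 URE libraries were at 0 counts, it was called lower (adjusted p = 0.0127). Ptpro was called lower in LSK in 4 of 16 alternatives, that one included. In normal maturation Ptpro rose, higher in WT GMP than in WT LSK by 2.41 ± 0.37 (adjusted p = 0.00159). The summed monocyte markers were also lower in URE in both gates, and their part in its fall was not tested.

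Ptprr, a receptor of the group that binds mitogen-activated protein kinases (MAPK) through a kinase interaction motif, was at 0 counts in all 8 URE libraries (chr10:116018213-116274932, plus strand). WT LSK libraries held 16, 45, 16 and 22 counts (0.521, 1.51, 0.637 and 0.881 CPM), and WT GMP libraries 13, 17, 15 and 17 (0.571, 0.729, 0.726 and 0.845 CPM). Against a floor of 3 counts per library, Ptprr was at least 7.49-fold lower in URE LSK (adjusted p = 0.00705) and at least 4.7-fold lower in URE GMP (adjusted p = 0.0038). The gene on the opposite strand with which it shares 650 exonic bases, 4933416C03Rik, was not used here, so reads shared with it were not checked, and the libraries do not keep strand. Its neighbour downstream, Ptprb, had at most 5 counts in any library.

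Ptpn6 fell in both gates. SHP-1, its product, binds through SH2 domains to inhibitory receptors and removes phosphate from kinases and cytokine receptors (chr6:124720707-124738714, minus strand). WT LSK libraries held 336, 362, 276 and 318 CPM, and URE LSK libraries 138, 163, 116 and 131. The groups lay far apart, and the log2 fold change was -1.27 ± 0.16 (adjusted p = 0.00145). In GMP, WT libraries held 286, 299, 192 and 297 CPM and URE libraries 155, 186, 147 and 181. WT GMP replicate 3 came close to the highest URE library without reaching it. There Ptpn6 fell by 0.66 ± 0.17 on the log2 scale (adjusted p = 0.0432). That call was held on leaving out WT GMP replicate 3 and was lost on leaving out any other of the 8 GMP libraries, at values of -0.74 to -0.60. It was also lost without the low count filter (adjusted p = 0.0902), on adjusting for the Y-linked genes (0.0772) and with replicates 1 and 4 (0.0581) or 2 and 3 (0.488) only. The fall was smaller in GMP than in LSK by 0.60 ± 0.14 with the block (adjusted p = 0.0236), and by 0.59 ± 0.23 without it (adjusted p = 0.294). An antisense gene sharing 195 exonic bases, Gm20531, had 4 to 41 counts a library.

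Ptprc encodes CD45, the most abundant phosphatase of the white cell surface (chr1:138062861-138175708, minus strand). Its isoform Cd45r was among the lineage antigens by which mature cells were removed from all groups. WT LSK libraries held 420, 517, 486 and 475 CPM, and URE LSK libraries 172, 281, 336 and 174. All URE libraries lay below all WT libraries, with replicates 2 and 3 nearest, and Ptprc fell by 1.01 ± 0.25 on the log2 scale (adjusted p = 0.0429). The call was held without URE LSK replicate 3 (adjusted p = 0.0157) and lost without any other of the 8 LSK libraries, at -1.07 to -0.87. In GMP, WT libraries held 303, 345, 353 and 247 CPM and URE libraries 141, 246, 215 and 131, and WT replicate 4 lay just above URE replicate 2. The value there was -0.75 ± 0.23 without the block (adjusted p = 0.0917) and -0.78 ± 0.14 with it (adjusted p = 0.00793).

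**Figure D3:**
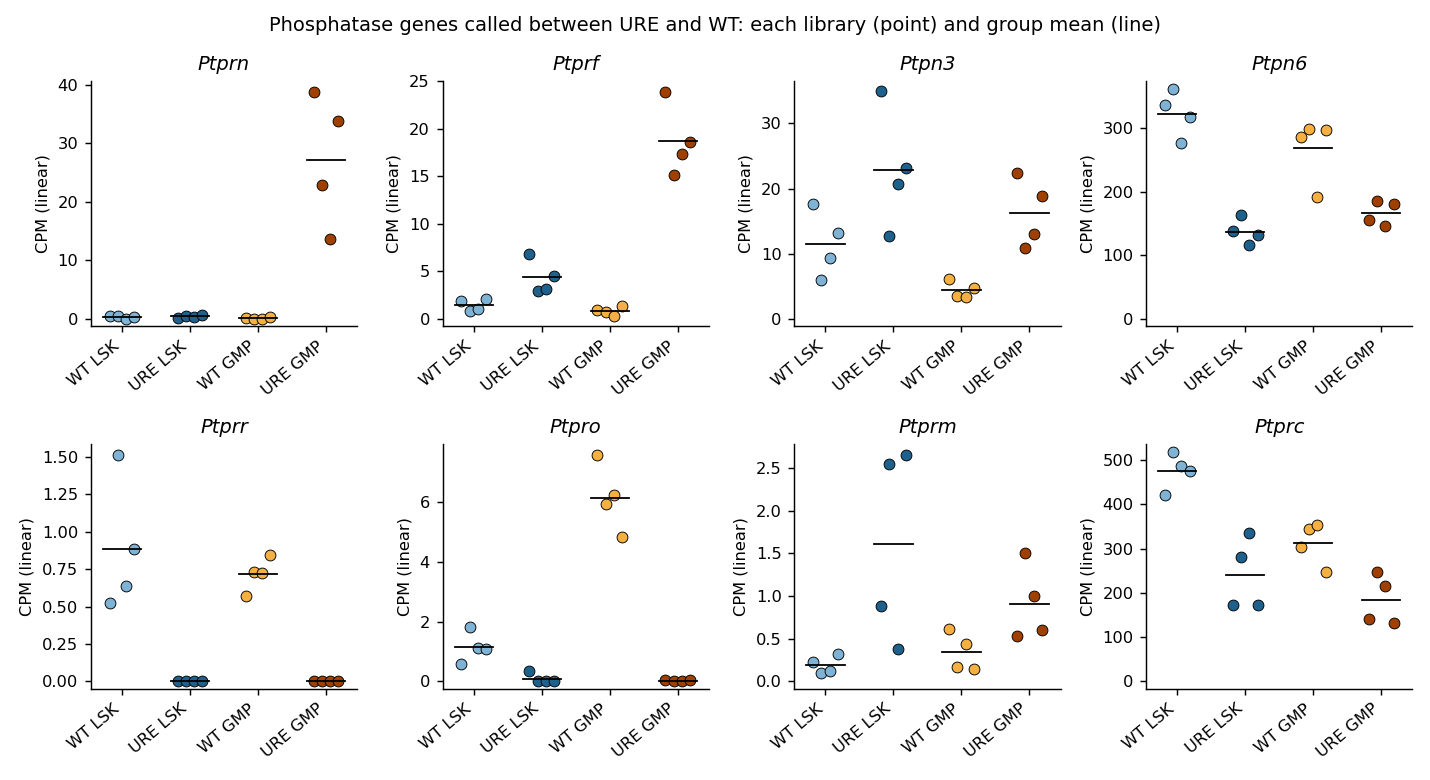
CPM of each library (points, replicates 1 to 4 from left to right) and group mean (line) for the 8 members called between URE and WT in LSK or GMP, on linear axes that each reach down to 0. Ptprn is high in URE GMP alone, at 13.6 to 38.7 CPM; Ptprr is at 0 in every URE library, and Ptpro at or near 0; Ptpn6 and Ptprc separate by genotype in both gates.

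The remaining high members were not called between genotypes. Ptpn7, the haematopoietic phosphatase of MAPK (chr1:135132700-135145317, plus strand), held 334, 327, 215 and 286 CPM in WT LSK and 447, 347, 344 and 382 in URE LSK. Every URE library was above every WT library, but the value of 0.35 ± 0.17 missed the threshold (adjusted p = 0.399). In GMP it held 419, 419, 215 and 335 CPM in WT and 479, 468, 333 and 467 in URE (0.36 ± 0.21, adjusted p = 0.41), and the groups overlapped. Ptpn2, which removes phosphate from JAK kinases and STAT factors, held 60.4, 73.7, 66.15 and 66.7 CPM in WT LSK and 55.3, 59.6, 59.9 and 61.6 in URE LSK (-0.21 ± 0.15, adjusted p = 0.632). In GMP it held 65.4, 84.8, 68.1 and 64.8 CPM in WT and 71.8, 73.4, 73.5 and 81.9 in URE (0.11 ± 0.15, adjusted p = 0.767). The genotypes overlapped in both gates. Ptpn18, of the group with a proline-rich PEST tail, held 87.7, 111, 98.7 and 100.04 CPM in WT LSK and 79.4, 96.3, 88.4 and 68.5 in URE LSK (-0.29 ± 0.17, adjusted p = 0.51). In GMP it held 51.1, 81.7, 88.0 and 58.5 CPM in WT and 40.01, 57.9, 73.3 and 65.0 in URE (-0.22 ± 0.26, adjusted p = 0.728). An antisense gene that shares 492 bases with Ptpn18, Gm28417, had 68 to 447 counts a library.

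Several other members had log2 fold changes between genotypes that were not called and are given here as examples chosen after their values were seen. Ptpn11 (SHP-2), the RAS pathway activator, had a log2 fold change of 0.05 ± 0.27 in LSK and 0.33 ± 0.28 in GMP. Ptpn1 (PTP1B), the insulin receptor phosphatase, gave 0.14 ± 0.21 and 0.20 ± 0.25. Ptpn22, known for restraining T-cell receptor kinases, gave -0.20 ± 0.25 and 0.10 ± 0.17, and Ptprj (CD148), a receptor that can activate Src family kinases, 0.25 ± 0.26 and 0.18 ± 0.24. None of these passed the threshold, which does not show that the genotypes were equal. Among the homophilic adhesion receptors related to Ptprm, Ptpru gave 1.17 ± 0.92 in LSK and 1.60 ± 0.43 in GMP. It missed the threshold in GMP without the block (adjusted p = 0.0503) and passed with it (1.56 ± 0.31, adjusted p = 0.0121), from 8.94 to 28.5 CPM in URE and 3.63 to 9.845 in WT. Ptpn12 (PTP-PEST), which acts at focal adhesions, was called higher in LSK with the block (0.65 ± 0.16, adjusted p = 0.0428, without it 0.311). Ptpre, a receptor close to Ptpra, gave -0.44 ± 0.25 in LSK and 0.29 ± 0.20 in GMP, and with the block the difference was 0.76 ± 0.20 (adjusted p = 0.0426, without it 0.382). An antisense gene that shares 209 exonic bases with Ptpre, 5830432E09Rik, held 256 to 370 counts a library in URE GMP and 68 to 124 in WT GMP, and its reads cannot be told apart from those of Ptpre where both overlap.

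Between GMP and LSK cells of WT mice, which traces normal maturation, 2 of the 25 members tested were called higher in GMP (Ptpru and Ptpro) and 6 lower (Ptpn3, Ptprk, Ptpn21, Ptprj, Ptpn22 and Ptprc), where 11.5% and 15.8% of 14767 genes were. Ptpru was higher by 3.39 ± 0.79 (adjusted p = 0.0117), from 0.101 to 1.60 CPM in LSK to 3.63 to 9.845 CPM in GMP. The falls were between -1.39 for Ptpn3 and -0.60 for Ptprc. Ptprc lost its call in 10 of 17 alternatives (adjusted p up to 0.124), among them DESeq2 and RLE size factors, both at -0.53, and without WT GMP replicate 1, 2 or 4 or WT LSK replicate 2. Ptpn3 lost its call in 5 of 17, with replicates 2 and 3 only and without WT GMP replicate 2 or 3 or WT LSK replicate 1 or 4 (adjusted p up to 0.126). The median log2 fold change of the 25 was -0.32, against -0.086 over all genes. The block called 8 lower, adding Ptpn23 and Ptpre, where 25.1% of all genes were. The number of lower members was 2 without WT GMP replicate 2 and 3 without WT LSK replicate 4.

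In URE mice the same step called 3 of 25 members higher (Ptprn, Ptpru and Ptprf) and 3 lower (Ptprj, Ptpn21 and Ptpn12), where 9.2% and 12.6% of 14395 genes were. Ptpru was higher by 3.76 ± 0.66 (adjusted p = 0.0037) and Ptprf by 2.12 ± 0.33 (adjusted p = 0.00197). Ptpru rose, and Ptprj and Ptpn21 (a FERM phosphatase) fell, in both genotypes. Ptprj went from 22.3 to 26.0 CPM in WT LSK to 7.69 to 15.0 in WT GMP, and from 19.98 to 43.1 in URE LSK to 12.5 to 14.2 in URE GMP. Its 4 LSK libraries lay above its 4 GMP libraries in either genotype. Ptpn21 did so in WT only. The block called 5 members lower, adding Ptpn23 and Ptpn9, where 18.6% of all genes were. No more than 1 lower call remained without URE GMP replicate 1, 2 or 4 or URE LSK replicate 2 or 4, with 0 without URE GMP replicate 2. The number of higher members was 3 in every fit that left out a library.

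**Figure D4:**
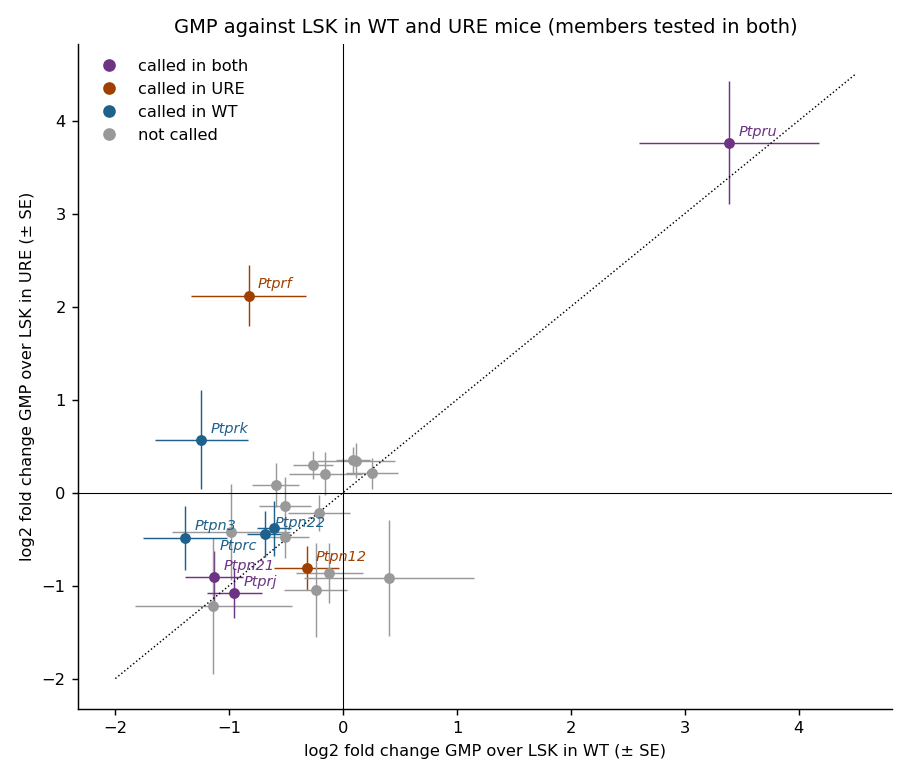
Log2 fold change of GMP over LSK in WT (horizontal) against URE (vertical), with standard errors, for the 23 members tested in both; the dotted line marks equal values. Ptpru lies high on both axes, Ptprj and Ptpn21 low on both, and Ptprf lies at -0.83 in WT and 2.12 in URE; Ptprn and Ptpro are not shown, since each was tested in 1 genotype only.

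The test of the difference between the genotype effects in GMP and LSK called 2 of 27 members (Ptprn and Ptprf), and 1.22% of all genes in either direction. With the block it called 5, adding Ptpn6, Ptpn3 and Ptpre, and 6.57% of all genes. All 5 were higher, that is, the URE effect was more positive in GMP. Ptpro gave -3.99 ± 1.47 (adjusted p = 0.254), so a difference between gates in its fall was not shown.

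Partners of these phosphatases were read from 5 lists of genes. Of 22 receptors with inhibitory tyrosine motifs that recruit SHP-1 and SHP-2, 18 were tested in LSK, with 7 lower and 1 higher in URE (3.76% and 2.38% of all genes), and 16 in GMP, with 5 lower and 4 higher (3.63% and 4.67% of all genes). With the block, 10 were lower and 3 higher in LSK, against 5.62% and 3.83% of all genes, and 7 lower and 6 higher in GMP, against 6.82% and 9.52%. Siglecg, an inhibitory sialic acid receptor of B cells, held 12.8 to 14.2 CPM in WT LSK and at most 1 count in any URE LSK library (adjusted p = 5.19e-05). In GMP it fell by 2.48 ± 0.53 on the log2 scale (adjusted p = 0.02), from 8.08 to 17.2 CPM to 0.854 to 4.87. Siglece, a related receptor of myeloid cells, fell in GMP by 5.51 ± 0.46 (adjusted p = 0.000331). Cd72, a B-cell receptor that binds SHP-1, rose in GMP by 2.38 ± 0.18 (adjusted p = 0.000283), from 27.5 to 38.6 CPM to 161 to 209 CPM. The part in the values of Siglecg and Cd72 of the B-cell marker sum, which was lower in URE in both gates mainly through Cd79b, was not tested. For 5 of the 18 receptors the genotype effect differed between gates, more positive in GMP, against 1.22% of all genes in either direction. With the block, 5 were more positive and 1 more negative in GMP, against 6.57%.

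Of 10 docking proteins of SHP-2, Gab3 (1.11 ± 0.24, adjusted p = 0.0203) and Irs2 (1.31 ± 0.31, adjusted p = 0.0325) rose in GMP, 2 of 8 tested against 4.67% of all genes. In LSK edgeR called 0 of 8 tested, with or without the block, and 1 had an unadjusted p under 0.05. Among 11 JAK kinases and STAT factors, edgeR called 0 in GMP, with 1 at an unadjusted p under 0.05, and 1 higher with the block, against 9.52% of all genes. Of 8 partners of CD45 and the PEST phosphatases, Dok2, an adaptor that restrains RAS, rose in LSK (1.402 ± 0.26, adjusted p = 0.0112) and Pstpip2, a membrane-bending adaptor, fell (-2.82 ± 0.55, adjusted p = 0.0151). These were 1 higher and 1 lower of 7 tested, against 2.38% and 3.76% of all genes. The block called 1 higher and 2 lower there, adding Pstpip1, against 3.83% and 5.62%. In GMP edgeR called 0 of 7 of these, with 4 at an unadjusted p under 0.05, and 3 higher and 2 lower with the block, against 9.52% and 6.82% of all genes. Among 12 partners and ligands of receptor PTPs, Sdc2, a heparan sulfate proteoglycan of the kind that LAR-type receptors bind, rose by 3.17 ± 0.35 in LSK (adjusted p = 0.000809) and 4.57 ± 0.29 in GMP (adjusted p = 9.16e-05). It went from 4.16 to 9.05 CPM in WT GMP to 116 to 203 in URE GMP. Tek, the receptor kinase that Ptprb opposes in endothelium, fell by 2.33 ± 0.31 and 4.89 ± 0.57. Ppfia4, a liprin that binds the second domain of LAR-type receptors, fell in GMP by 4.26 ± 0.43 (adjusted p = 0.000733), and was called lower in LSK with the block only. In all, 1 partner was higher and 1 lower of 7 tested in LSK, against 2.38% and 3.76% of all genes, and 1 higher and 2 lower of 5 tested in GMP, against 4.67% and 3.63%.

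Promoters are shown because PU.1 is a DNA-binding factor and its gene is the target of the deletion. RefSeq windows of 250 bases before to 50 after the start (GRCm38.p6) were matched by symbol for 32 members, with 46 windows. The letters GAGGAAG, read on both strands as a PU.1 site, were in 9 of the 46 windows and in 13.6% of all 32851 windows. The RUNX letters TGTGGTT were in 2 of 46 (5.27% of all), and the C/EBP letters TTNNGCAA in 2 of 46 (10.8% of all). Windows of the called members Ptpro, Ptprr, Ptprf, Ptpn3, Ptprm, Ptpn6 and Ptprc held none of the 3 motifs, and 1 of 2 windows of Ptprn held GAGGAAG. A match of these letters is a description, and its absence says nothing of binding elsewhere. The 250 bases before the start are given for Ptpro, the member that fell to near 0, with no match. They are also given for Ptpn7, the highest member per kb in URE, which was not called between genotypes. Of its 2 windows, the 1 that held GAGGAAG is shown, with these letters in capitals.
Ptpro, chr6:137252049-137252298, plus strand: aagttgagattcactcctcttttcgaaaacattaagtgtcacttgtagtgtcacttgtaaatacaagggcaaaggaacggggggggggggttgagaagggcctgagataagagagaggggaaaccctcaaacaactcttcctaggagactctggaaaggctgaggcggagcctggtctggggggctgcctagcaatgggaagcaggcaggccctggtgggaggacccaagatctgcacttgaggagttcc
Ptpn7, chr1:135132450-135132699, plus strand: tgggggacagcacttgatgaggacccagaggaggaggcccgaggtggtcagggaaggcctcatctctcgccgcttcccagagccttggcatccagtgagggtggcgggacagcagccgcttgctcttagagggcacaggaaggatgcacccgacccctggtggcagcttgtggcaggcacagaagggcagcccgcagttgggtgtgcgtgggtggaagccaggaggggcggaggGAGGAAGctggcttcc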

How the data were processed

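RNA from sorted cells (up to 10 ng per library) was made into unstranded low-input libraries without molecular identifiers. The deposited table holds estimated counts per gene, which the authors made with Salmon (GRCm38, per the submitters' processing notes) and tximport; the annotation release is not given in the sources used here. The deposited values were already whole numbers, and CPM were scaled by TMM. Genes matched GENCODE M21 for 54094 of 54347 IDs.

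Tests ran over all genes with edgeR 4.0.16 (R 4.3.3; filterByExpr, quasi-likelihood test) on the groups compared, or on all 16 libraries for the difference between genotype effects. Calls used a Benjamini-Hochberg adjusted p under 0.05 and, except for that difference, a fold above 1.5. The fit was tested on simulated data with known changes. The members and gene lists were chosen with earlier results of these data known. Named in full are members called between genotypes and the 5 highest per kb, and of partner genes at most 3 called per list. Some results on partner genes are not reported here.

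The main tests did not pair the libraries. Deviations of libraries with equal replicate number correlated at 0.334 to 0.761 between genotypes and 0.527 to 0.880 between gates. A fit with the replicate number as a block was therefore also made, and its values are named as such. Between genotypes, replicates 1 and 4 and replicates 2 and 3 also correlated with each other (mean 0.402 in LSK and 0.383 in GMP), and URE replicate 4 more with WT replicate 1 (0.5865 and 0.582) than with WT replicate 4 (0.394 and 0.334), so equal numbers alone are not shown to be the pairing. Alternatives were DESeq2 1.42.0, other size factors, filters, a joint fit, no fold limit, replicate sets, each library left out and, chosen after seeing the data, the Y-linked level as a covariate. At these depths 3 counts in a library are on average 0.119 CPM in URE LSK and 0.153 CPM in URE GMP, the floor used for the fold against a group at 0 counts in every library. No library pair agreed within sampling noise.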

Additional observations from a re-analysis of the deposited data

Results flagged for a closer look

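In 8 of 106 groups of 4 libraries, for the members tested between genotypes, 1 library stood apart from the other 3 by Dixon's criterion (the gap to the nearest library against the range). Chance flags about 1 in 20 groups, or 5.3 of 106. High libraries were Ptpn12 at 24.02 CPM in URE GMP replicate 3, Ptpn2 at 84.8 CPM in WT GMP replicate 2 and at 81.9 CPM in URE GMP replicate 4, Ptpn23 at 15.3 CPM in WT GMP replicate 1, Ptprj at 26.0 CPM in WT LSK replicate 4 and Ptpro at 0.361 CPM in URE LSK replicate 1. Low libraries were Ptpn6 at 192 CPM in WT GMP replicate 3 and Ptpn7 at 333 CPM in URE GMP replicate 3. Without URE LSK replicate 1, Ptpro was called lower in LSK, as given above, and without WT GMP replicate 3 Ptpn6 kept its call in GMP.

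The genotype effects of 2 members differed between the gates by the test of that difference, Ptprn by 7.56 and Ptprf by 2.98 on the log2 scale, both more positive in GMP.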

How the results depend on the processing

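Calls of Ptprn, Ptprf and Ptpro in GMP were made under every alternative run, with adjusted p up to 0.0115, 0.022 and 0.0375. Those of Ptprr in both gates, Ptpn6 in LSK and Ptpn3 in GMP were lost with replicates 2 and 3 only, where few samples remain, as were the calls of Ptprn and Ptprf in the test of the difference between genotype effects. Ptprc and Ptprm in LSK were also lost there and with the Y-linked covariate, and Ptprm with replicates 1 and 4 only. The sign changed for Ptprn in LSK, which was not called, at -0.14 with replicates 1 and 4 only, -0.42 with the Y-linked covariate, -0.10 without URE LSK replicate 4 and -0.08 without WT LSK replicate 3 (up to 0.57 with another library left out), and for Ptpn2 in GMP, not called either, at -0.019 with replicates 2 and 3 only. The cause was not tested.

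Members higher in URE LSK numbered 1. They were 2 by DESeq2 and 2 in the joint fit, 4 with the replicate block, and 0 with a mean of at least 1 CPM, with replicates 1 and 4 only, with replicates 2 and 3 only and with the Y-linked covariate; leaving out 1 library gave 0 to 1. Members lower in URE LSK numbered 3, and 2 to 3 without 1 library. With replicates 2 and 3 only, 1 was lower, which was none of those 3, since all 3 lost their calls there. In GMP, 3 were higher, and 3 to 4 without 1 library; 3 were lower, 1 with replicates 2 and 3 only and 2 to 3 without 1 library. From LSK to GMP in WT, 6 were lower, 3 with replicates 1 and 4 only, 0 with replicates 2 and 3 only and 2 to 5 without 1 library. In URE, 3 were lower, 1 with RLE size factors, 1 without the low count filter, 5 with the replicate block, 0 with replicates 2 and 3 only and 0 to 2 without 1 library. Members with an interaction numbered 2, 5 with the block, 0 with replicates 2 and 3 only and 1 to 2 without 1 library. The replicate block changed no call of a member other than those given beside the results. Members near 1 CPM (Ptprm, Ptprr) are limited by depth.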
